A study of Homo sapiens and Mus musculus with 92 samples.

Results

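The MYC, MAX and MXD network is a set of transcription factors that share the small partner MAX. Its 10 genes were taken as the rows of both deposited count tables whose symbol was MYC, MYCN, MYCL, MAX, MXD1, MXD3, MXD4, MXI1, MNT or MGA, and all 10 were found among the 28103 genes listed. Part of the study asked how MLL1 (gene symbol KMT2A), a histone methyltransferase, and AF9 (gene symbol MLLT3), a chromatin reader of the super elongation complex, act on transcription in cells where MLL1 and AF9 are not fused. Its other part, on the MLL-AF9 fusion in leukemic cells, is not covered here. The cells used here were HEL, an established human erythroleukemia line without MLL1 rearrangement, which the labels describe as erythroblast.

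Poly-A RNA of 10 libraries was sequenced with strand information. In the MLL1 experiment 3 libraries came from cells with MLL1 shRNA #1 (MLL1 KD) and 3 from their controls. In the AF9 experiment 2 came from cells with AF9 shRNA #1 (AF9 KD) and 2 from theirs. Each experiment had its own control cells, whose genotype is labelled WT and which, by the methods, received a control shRNA by lentivirus. Both KD groups thus rest on a single shRNA each, so that an effect of the target and an effect of the hairpin cannot be told apart. Nothing in the labels says that replicates were separate cultures, so the p-values measure the spread between these libraries, which may be technical.

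MYC, MYCN and MYCL are the activating side of the network. Each dimerizes with MAX, binds the E-box CACGTG and recruits histone acetyltransferases to genes of growth and ribosome production. MXD1, MXD3, MXD4, MXI1 and MNT compete for MAX and the same E-box and recruit SIN3 and histone deacetylases, MXD1 being known for its rise as blood cells differentiate, and MGA carries MAX into a polycomb complex that silences germline genes.

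The stretch just before the start of a gene is where E2F factors and the network itself may bind, so the 250 bases upstream of each RefSeq start (GRCh38.p14) were searched. Entries were found for 9 of the 10 genes, with 14 windows in all. MYC was the gene without an entry, so its promoter was not searched. Both strands were searched for the palindrome CACGTG and for the E2F forms TTTGGCGC, TTTCGCGC and TTTCCCGC. The E-box was present in 6.34% of all 35116 windows and the E2F forms in 2.32%. Below, MYCN is shown because it had the largest MLL1 KD difference of the network, and MXD4 because it held an E-box. Capitals mark the E2F matches in MYCN, of which 2 on opposite strands overlap each other and begin 176 and 172 bases before the start, and the E-box in MXD4, 238 bases before the start.

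MYCN promoter, chr2:15940300-15940549, plus strand: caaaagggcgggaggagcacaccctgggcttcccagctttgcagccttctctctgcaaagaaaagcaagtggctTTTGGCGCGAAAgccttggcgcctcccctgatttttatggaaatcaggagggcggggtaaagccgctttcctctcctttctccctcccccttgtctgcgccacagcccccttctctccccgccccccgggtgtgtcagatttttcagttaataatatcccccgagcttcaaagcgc

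MXD4 promoter, chr4:2262110-2262359, minus strand: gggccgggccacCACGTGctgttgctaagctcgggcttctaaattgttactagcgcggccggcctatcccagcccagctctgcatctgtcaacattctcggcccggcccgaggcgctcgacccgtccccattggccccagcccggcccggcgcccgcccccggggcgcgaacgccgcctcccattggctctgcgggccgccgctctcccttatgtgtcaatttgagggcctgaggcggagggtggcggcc

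The remaining matches were an E-box in MNT, 193 bases before its start, and an E2F form in 1 of 3 windows of MGA, 65 bases before the start. A match says only that these letters are in the window, and none of these windows was measured here for binding.

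The targeted genes were lower in the cells labelled as KD. KMT2A was at 1318, 1302 and 1254 CPM (counts scaled to library size with TMM factors) in MLL1 control cells and at 815, 813 and 832 CPM in MLL1 KD cells, with no overlap. Its log2 fold change was −0.66 ± 0.09 (SE), with an adjusted p of 0.0722 (edgeR quasi-likelihood test, Benjamini-Hochberg over all genes tested) and of 2.5e-07 once replicate numbers were taken as pairs. MLLT3 was at 548 and 527 CPM in AF9 control cells and at 107 and 92.5 CPM in AF9 KD cells, a log2 fold change of −2.43 ± 0.11 (adjusted p 2.9e-08). The mean of each target was also lower in the other KD. KMT2A had −0.32 after AF9 KD (adjusted p 0.0199, and 0.191 with the GC content offsets used below). MLLT3 had −0.28 after MLL1 KD, where the groups overlapped (adjusted p 0.613, and 0.0171 with the pairs). Of the short sequence words in the exons of KMT2A 21.8% also occur in other genes. Total counts ran from 6966345 to 10380241 per library in the MLL1 experiment and from 12278989 to 14232408 in the AF9 experiment, and 14408 and 13350 genes, respectively, passed the filter of a mean TPM (counts scaled to exon length and library size) of at least 1. Erythroid markers (12 genes) summed to 1509 to 2022 CPM in the MLL1 experiment and to 6380 to 9564 CPM in the AF9 experiment, and 2 to 4 of 6 lymphoid markers were at 0 in every library. Replicate 1 of both MLL1 groups stood apart from replicates 2 and 3, as seen below for MYCN and MGA.

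MYC was the most abundant gene of the network in every group. Per length of merged exons, its level in MLL1 control cells was 618 ± 42.4 TPM (SD, n = 3), followed by MAX at 129 ± 12.2 TPM and MGA at 68.9 ± 15.8 TPM. MYCN (44.1 ± 22.98 TPM) overlapped both MGA above it and MNT (31.2 ± 0.785 TPM) below it. MXD1 followed at 26.1 ± 0.538 TPM, MXI1 at 10.99 ± 1.79 TPM and MXD3 at 6.87 ± 1.603 TPM, each apart from its neighbours. MXD4 (2.27 ± 0.519 TPM) and MYCL (1.97 ± 0.0801 TPM) overlapped at the bottom. MYC, MAX and MGA thus led the order there, and the antagonists that bind MAX were each below MAX itself.

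In AF9 control cells MYC was at 268 ± 2.90 TPM (SD, n = 2), MAX at 91.6 ± 3.05 TPM and MGA at 41.3 ± 3.04 TPM. The tail of the order was another one than in the MLL1 experiment, with MYCL at 9.35 ± 1.25 TPM, overlapping MNT at 8.36 ± 0.241 TPM. MYCN was last at 0.948 TPM. The 2 experiments were sequenced and counted as separate tables, so these values stand side by side and were not tested against each other. When the length of the canonical transcript was used in place of merged exons, MYC and MAX led in every group, while MXD3 moved from 6.87 to 19.1 TPM in MLL1 control cells its canonical transcript holding 1067 bases and its merged exons 4743.

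**Figure D1:**
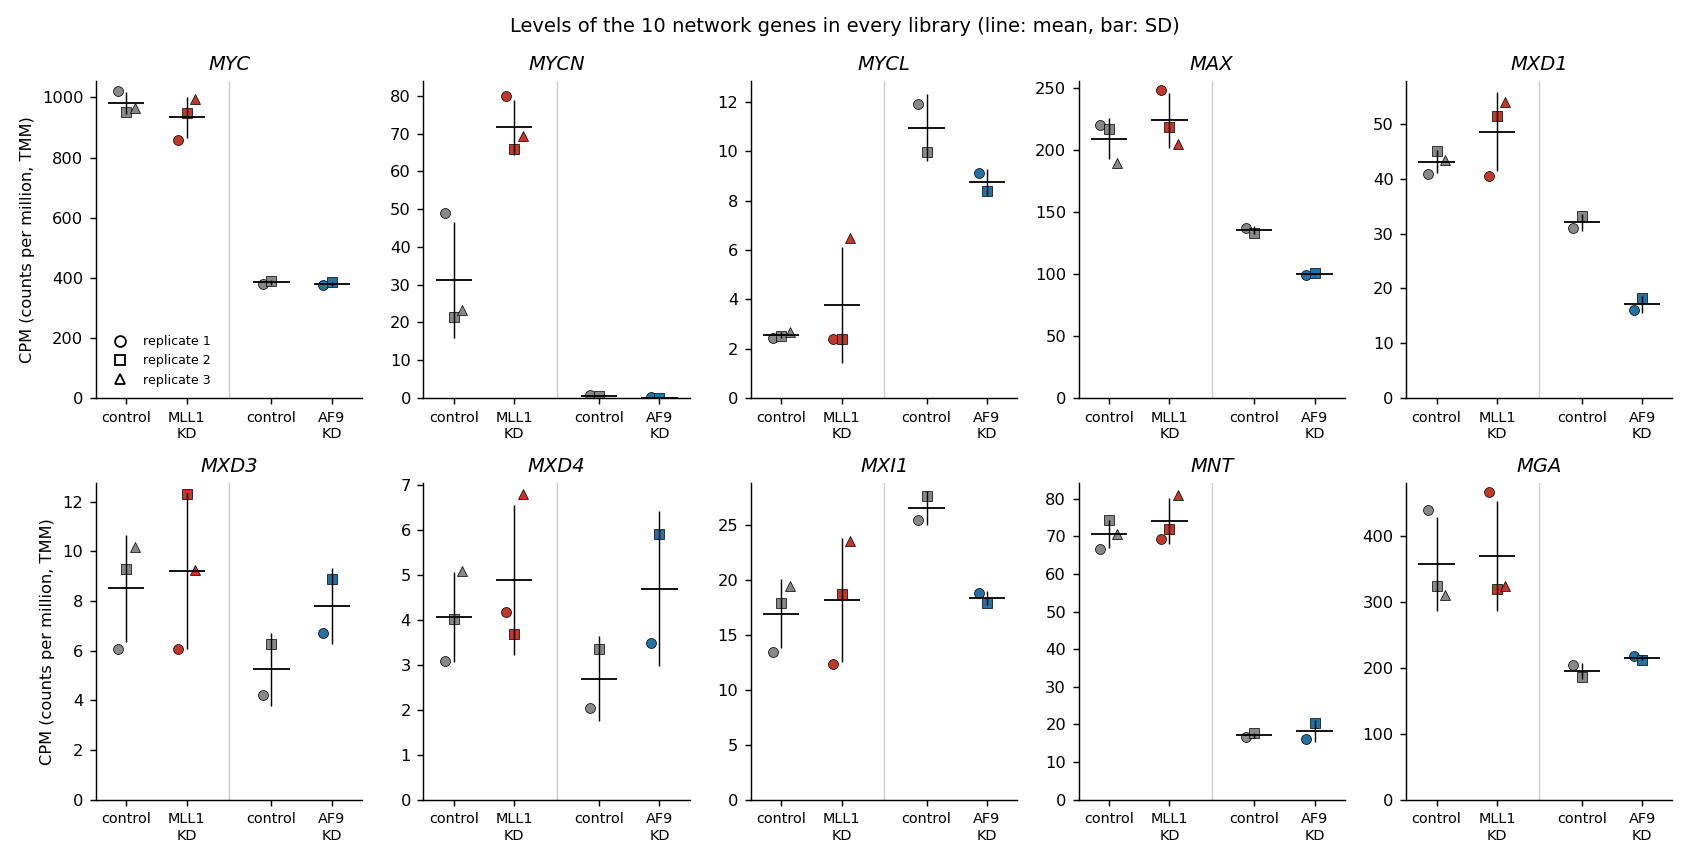
Level of each network gene in every library, in CPM with TMM factors on a linear axis from 0, with a panel per gene. Points are libraries (circle, square and triangle for replicates 1, 2 and 3), lines are group means and bars are SD. MYCN is the gene of the MLL1 experiment whose KD libraries all lie above the control libraries, and MXD1, MXI1 and MAX are lower in both AF9 KD libraries than in both controls.

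MLL1 KD left the activator MYC near its control level and was accompanied by higher MYCN. MYCN, a MYC paralog best known from neural progenitors and neuroblastoma, was at 48.9, 21.5 and 23.4 CPM in control replicates 1, 2 and 3 and at 79.9, 65.8 and 69.2 CPM in the KD replicates (counts of 379, 155 and 184 against 804, 465 and 642). Every KD library was above every control library, and control replicate 1 was the highest of its group. Its log2 fold change was 1.20 ± 0.31, with an unadjusted p of 0.00515 and an adjusted p of 0.248, so that MYCN was not called by edgeR without pairing.

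The same-numbered libraries of the MLL1 experiment deviated together (correlations of 0.325 to 0.647). Control replicate 2 with KD replicate 3 gave 0.368, and control replicate 3 with KD replicate 2 gave 0.359. The correlations thus set replicate 1 apart and do not pair replicates 2 and 3 by number. With the replicate number as a block MYCN rose, with a log2 fold change of 1.26 (adjusted p 1.0e-05). KD replicate 1 was 1.64 times its control, replicate 2 was 3.06 times and replicate 3 was 2.96 times, so the ratio was above 1 in 3 of 3 pairs. DESeq2 on the same genes also called it (log2 fold change 1.20, adjusted p 0.0192). Without any single library the log2 fold change was between 0.99 and 1.67 and the adjusted p between 0.128 and 0.729. Over all alternatives run the adjusted p ranged from 1.9e-31 to 0.729. In bulk RNA, more MYCN per cell and more cells with MYCN cannot be told apart, nor can fewer cells of a type and less RNA per cell for the genes that were lower.

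MYC, the main activator, was at 1022, 953 and 966 CPM in MLL1 control cells and at 860, 947 and 994 CPM in MLL1 KD cells. The groups overlapped, with KD replicate 1 the lowest of the 6 libraries. The log2 fold change was −0.07 ± 0.10 (adjusted p 0.903), and its 95% interval ran from −0.31 to 0.17. In terms of the summed TPM of the 3 MYC paralogs, MYCN made up 9.55%, 4.76% and 5.08% in control replicates and 17.0%, 13.3% and 13.3% in KD replicates, the groups not overlapping, and MYC still made up at least 82.7% in each of the 6 libraries. These shares depend on the length used, and with the canonical transcript MYCN made up 6.36%, 3.11% and 3.32% in control and 11.7%, 8.98% and 8.97% in KD replicates, again not overlapping.

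MYCL, the third paralog, was at 2.45, 2.50 and 2.67 CPM in control cells and at 2.39, 2.41 and 6.47 CPM in MLL1 KD cells. A single library, KD replicate 3 with 60 counts, carried its log2 fold change of 0.57 ± 0.46 (adjusted p 0.773), and without that library the value was −0.09. PVT1, a noncoding RNA gene next to MYC, was at 125, 126 and 114 CPM in control cells and at 173, 181 and 190 CPM in MLL1 KD cells. These groups did not overlap. The log2 fold change of PVT1 was 0.57 ± 0.11 (adjusted p 0.149, and 1.2e-04 with the block), just under the fold change of 1.5 required for a call.

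**Figure D2:**
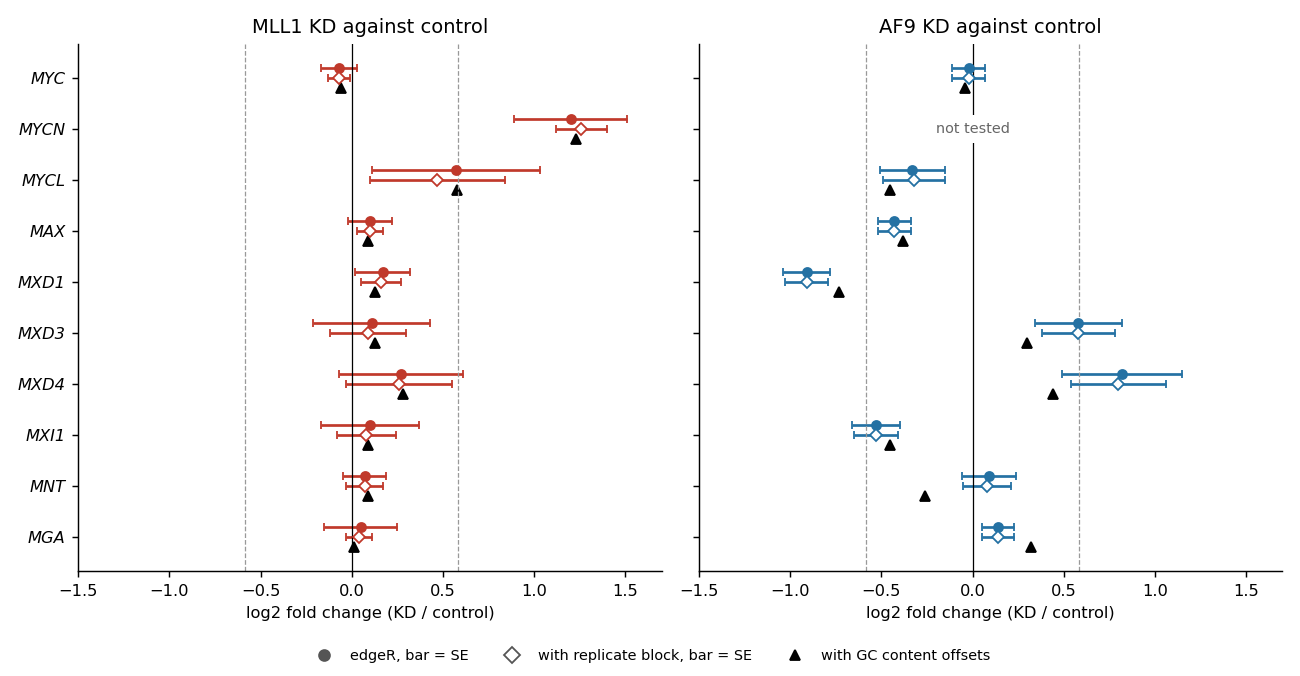
Log2 fold change (KD over control) of the 10 network genes after MLL1 KD (left) and AF9 KD (right). Filled circles are the edgeR fit and open diamonds the fit with replicate number as a block, both with SE bars, triangles are the fit with GC content offsets, and dashed lines mark a fold change of 1.5. After MLL1 KD MYCN lies beyond the line at 1.20 while MYC sits at −0.07, and after AF9 KD MXD1 lies beyond it at −0.91.

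MAX, the obligate partner, was at 220, 217 and 190 CPM in MLL1 control cells and at 248, 218 and 205 CPM in MLL1 KD cells, overlapping, with a log2 fold change of 0.10 ± 0.12 (adjusted p 0.88). Among its repressive partners, MXD1 was at 40.9, 45.1 and 43.4 CPM against 40.4, 51.4 and 54.0 CPM, a log2 fold change of 0.17 ± 0.15 (adjusted p 0.799). MXI1, the family member also known as MXD2, was at 13.4, 17.9 and 19.5 CPM against 12.3, 18.7 and 23.5 CPM, with replicate 1 the lowest of both groups (log2 fold change 0.10 ± 0.27, adjusted p 0.954). MXD3, which is tied to proliferating cells, and MXD4 gave 0.11 ± 0.32 and 0.27 ± 0.34 on the log2 scale, with adjusted p of 0.959 and 0.883. None of the repressive partners thus separated the MLL1 KD libraries from their controls.

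MNT, the broadly expressed antagonist, was at 66.8, 74.3 and 70.6 CPM in control cells and at 69.3, 72.1 and 81.0 CPM in MLL1 KD cells (log2 fold change 0.07 ± 0.12, adjusted p 0.923). MGA was at 440, 324 and 310.0 CPM in control cells and at 467, 319 and 324 CPM in KD cells. Replicate 1 was the highest library of both groups for MGA, while KD and control libraries of the same number differed little, with ratios of 1.06, 0.983 and 1.05 (log2 fold change 0.05 ± 0.20, adjusted p 0.971).

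Over the network, 0 of 10 genes were called after MLL1 KD by edgeR, where 0.0694% of all genes tested were called. At an unadjusted p under 0.05 it was 1 of 10, MYCN, where 9.97% of all genes passed. The groups did not overlap for 1 of 10, where they did not for 17.7% of all genes. With the replicate block, 1 of 10 rose and 0 fell, where 2.22% and 2.52% of all genes did, and DESeq2 called 1, where it called 1.61%. The median log2 fold change was 0.10 over the 10 genes and 0.01 over all genes tested.

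AF9 KD was accompanied by lower MXD1. MXD1 was at 30.98 and 33.1 CPM in AF9 control cells and at 16.0 and 18.2 CPM in AF9 KD cells, both KD libraries well below both controls. Its log2 fold change was −0.91 ± 0.13 (adjusted p 3.6e-04), and the KD libraries were at 0.517 and 0.548 of their controls. The call held in every alternative at a fold change of 1.5, with adjusted p from 5.4e-12 to 0.00173. The fits that left out a library are among these, and since each leaves a group with 1 library, which is then assumed to vary like the other group, they say little about stability.

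MXI1 was at 25.5 and 27.6 CPM in AF9 control cells and at 18.8 and 17.9 CPM in AF9 KD cells, not overlapping. Its log2 fold change of −0.53 ± 0.13 had an adjusted p of 0.0086 but was short of a fold change of 1.5. Without control replicate 1 it was −0.59 (adjusted p 0.037), which was past that size. MAX was at 137 and 133 CPM against 99.5 and 101 CPM, with a log2 fold change of −0.43 ± 0.09 (adjusted p 0.00356), also under the required size. Over all alternatives run the adjusted p ranged from 2.8e-05 to 0.0672 for MAX and from 1.2e-04 to 0.0808 for MXI1, the highest values coming from fits that left out a library. MAX and these 2 of its repressive partners were therefore lower together, of which MXD1 alone was called.

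The other MXD genes lay on the other side. MXD4, a further partner of MAX, whose promoter window with an E-box is shown above, was at 2.03 and 3.36 CPM in AF9 control cells and at 3.48 and 5.91 CPM in AF9 KD cells (28 and 40 against 45 and 79 counts), a log2 fold change of 0.82 ± 0.33 (adjusted p 0.0755). MXD3 was at 4.21 and 6.29 CPM against 6.73 and 8.90 CPM, a log2 fold change of 0.58 ± 0.24 (adjusted p 0.0869). The KD libraries were above the controls for both genes, by small margins. Leaving out a library leaves 1 in its group, which is then assumed to vary like the other group. Under that assumption both were called when control replicate 2 was left out, at log2 fold changes of 1.21 (adjusted p 0.0255) for MXD4 and 0.89 (adjusted p 0.0392) for MXD3, and when KD replicate 1 was left out, at 1.15 (adjusted p 0.00644) and 0.77 (adjusted p 0.0217). Over all alternatives the adjusted p of MXD4 ranged from 0.00644 to 0.481 and that of MXD3 from 0.0135 to 0.586.

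MYC was at 380 and 391 CPM in AF9 control cells and at 376 and 385 CPM in AF9 KD cells, overlapping, with a log2 fold change of −0.02 ± 0.09 (adjusted p 0.895) and a 95% interval from −0.22 to 0.18. MYCL was at 11.9 and 9.98 CPM against 9.12 and 8.38 CPM, a log2 fold change of −0.33 ± 0.18 (adjusted p 0.192). PVT1 was at 87.7 and 84.2 CPM against 90.5 and 82.0 CPM, with a log2 fold change of 0.00 ± 0.10 (adjusted p 0.984). MYC and PVT1 thus overlapped between the groups, while both AF9 KD libraries were below both controls for MYCL.

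MYCN missed the filter in the AF9 experiment and was not tested there. It had 10 and 6 counts in control cells and 3 and 0 counts in AF9 KD cells. Summed over the libraries this was 16 against 3 counts, a ratio of KD to control of 0.183 after scaling to total counts, with an exact 95% interval from 0.0342 to 0.64, which covers counting error only.

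MNT and MGA, the largest proteins of the network, were not called after AF9 KD. MNT was at 16.7 and 17.6 CPM in control cells and at 16.2 and 20.3 CPM in AF9 KD cells, overlapping (log2 fold change 0.09 ± 0.15, adjusted p 0.69). MGA was at 204 and 187 CPM against 218 and 213 CPM, not overlapping, a log2 fold change of 0.14 ± 0.09 (adjusted p 0.292).

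Of the 9 network genes tested after AF9 KD, 0 rose and 1 fell, where 8.01% and 5.06% of all genes tested did. An adjusted p under 0.05 at any fold was reached by 3 of 9, where 29.0% of all genes reached it, and an unadjusted one by 5 of 9, where 40.6% did. The groups did not overlap for 7 of 9, where they did not for 66.0% of all genes. The shares over the network were thus near those over all genes, and the median log2 fold change was −0.02 against 0.01.

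Fold changes of the AF9 experiment moved with the GC content of the exons across all genes (Spearman rho 0.48 over 13060 genes, a description, since genes share the libraries). The network genes spread along this axis, with MXD1 at 42.7% GC, MXI1 at 47.6% and MAX at 49.2% on the side of the lower values, and MXD3 at 58.4% and MXD4 at 60.1% on the other. All genes tested with 40 to 45% GC had a median log2 fold change of −0.13, and those with 60 to 65% had 0.48. After offsets that remove each library's trend with GC, MXD1 still fell, by 0.73 (adjusted p 7.7e-04), where 3.81% of all genes fell. The log2 fold change of MXI1 was then −0.45 (adjusted p 0.0124) and that of MAX −0.38. MXD4 came to 0.44 (adjusted p 0.277), MXD3 to 0.30, and MNT turned from 0.09 to −0.26. MGA, at 42.4% GC, went from 0.14 to 0.32 (adjusted p 0.00787), still under a fold change of 1.5. In the MLL1 experiment the same rho was −0.07, and MYCN (56.6% GC) had 1.23 with the offsets against 1.20 without.

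**Figure D3:**
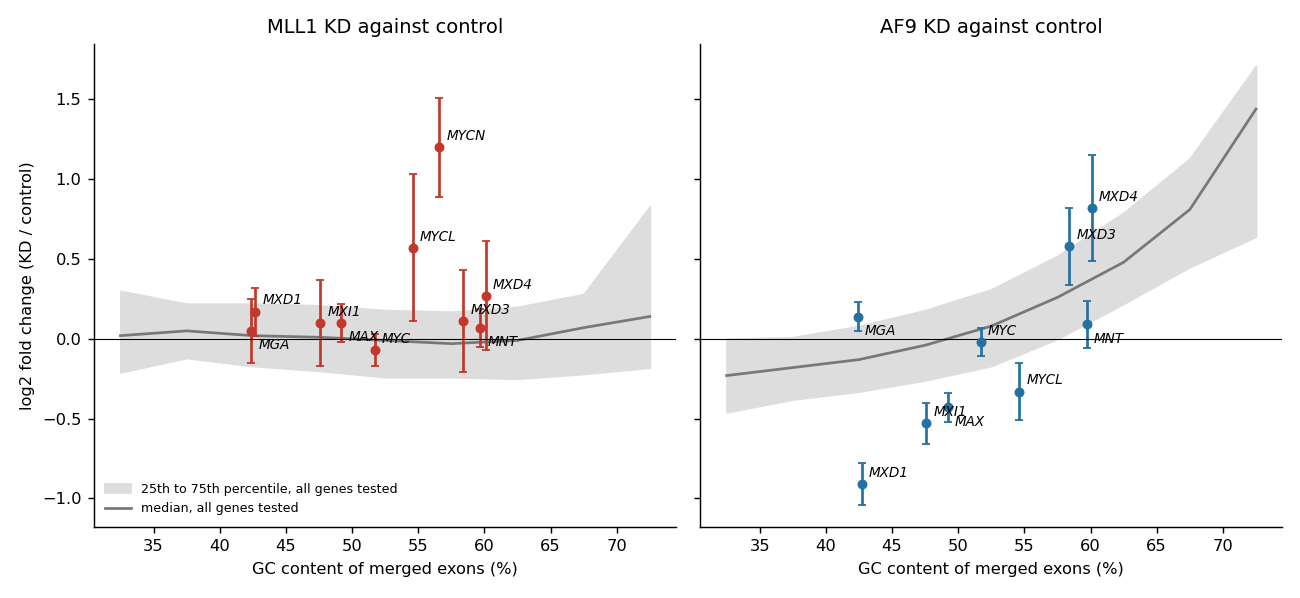
Log2 fold change (KD over control) against the GC content of merged exons in percent, after MLL1 KD (left) and AF9 KD (right). Points are the network genes tested with SE bars, and the line and band are the median and the 25th to 75th percentile of all genes tested in steps of 5% GC. The line is flat after MLL1 KD and climbs from −0.23 to 1.44 after AF9 KD. There MXD1, MXI1, MAX and MYCL lie below the band, MGA and MXD4 lie above it and MXD3 lies near its upper edge.

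The KD effects of both experiments were set against each other by the test of the difference itself over 12750 genes tested in both, of which 1.36% were called. Target, experiment and depth of KD go together here (KMT2A at 63.5% and MLLT3 at 18.6% of control), so their parts cannot be told apart. MXD1 was the 1 network gene called, at 0.17 after MLL1 KD and −0.91 after AF9 KD, a difference of −1.10 ± 0.22 on the log2 scale (AF9 effect minus MLL1 effect, adjusted p 0.0459). With GC content offsets this difference was −0.88 (adjusted p 0.13), and with total counts in place of TMM it was not called either. For MAX it was −0.55 (adjusted p 0.133, and 0.00254 with the block), for MXI1 −0.65 (adjusted p 0.404, and 0.0309 with the block) and for PVT1 −0.59 (adjusted p 0.0987, and 0.00294 with the block). With the block 2 network genes, MXD1 and MXI1, passed both thresholds, where 15.3% of all genes did. For MYC it was 0.03 ± 0.14 (adjusted p 0.943). MYCN could not enter this test because it missed the filter in the AF9 experiment.

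Genes around the network were taken from 9 lists of 84 genes in all, of which 81 were in the tables, and 76 were tested in the MLL1 and 75 in the AF9 experiment. After MLL1 KD 0 of 76 were called by edgeR, where 0.0694% of all genes tested were. With the replicate block 0 rose and 2 fell, where 2.22% and 2.52% of all genes did, so the share that fell was near that over all genes. TXNIP, which restrains glucose uptake and is the classic target of MondoA, was at 732 ± 312 CPM in control and 490.3 ± 257 CPM in MLL1 KD cells (n = 3 each) and fell with the block by 0.65 (adjusted p 1.1e-05), while the fit without it gave −0.58 (adjusted p 0.784). ARRDC4, the other MondoA target listed, lay on the other side, at 0.53 (adjusted p 0.635, and 4.8e-04 with the block), under a fold change of 1.5. CBX3, a heterochromatin protein found in the polycomb complex of MGA, was at 84.5 ± 10.2 CPM in control and 44.6 ± 5.95 CPM in KD cells and fell with the block by 0.92 (adjusted p 3.8e-06), with −0.92 (adjusted p 0.123) without it. Of the short sequence words in its exons 16% also occur in other genes, among them its pseudogene CBX3P9, so its counts are uncertain.

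The 29 MYC-activated targets tested after MLL1 KD had a median log2 fold change of 0.11, with 21 above and 8 below 0. The 10 co-activators of MYC had a median of 0.06, the 11 co-repressors of MXD and MNT 0.07, the 9 partners of MGA 0.06 and the 8 genes of MYC protein turnover 0.13. All genes tested had 0.01. None of these lists held a called gene in the edgeR fit without the block.

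After AF9 KD 8 of 75 genes of the lists rose and 3 fell, where 8.01% and 5.06% of all genes tested did, shares near those of the lists. Among the 29 MYC-activated targets tested 6 rose, a larger share than the 8.01% of all genes, and 1 fell, where 5.06% did. Their median log2 fold change was 0.21 (0.25 with GC offsets). With GC offsets 2 rose and 1 fell, where 8.14% of all genes were called in either direction and 3.81% fell. BOP1, a ribosome assembly factor, rose from 54.7 ± 9.45 to 116 ± 11.3 CPM (SD, n = 2 each), a log2 fold change of 1.09 ± 0.12 (adjusted p 6.1e-05). SRM, the spermidine synthase, rose by 0.82 ± 0.12 (adjusted p 3.6e-04), and TERT, the catalytic subunit of telomerase, rose by 0.94 ± 0.32 from 1.78 to 3.38 CPM (adjusted p 0.0439). CCND2, the D-type cyclin that drives entry into the cell cycle, went the other way, from 217 ± 3.39 to 127 ± 10.54 CPM, and fell by 0.77 (adjusted p 1.2e-04). The exons of BOP1, SRM and TERT hold 63.1 to 65.2% GC, and with GC offsets their log2 fold changes were 0.41, 0.15 and 0.38, none of them called, where 8.14% of all genes were. The 2 that rose with GC offsets were RIOX2, a ribosomal oxygenase, at 0.78 (adjusted p 5.1e-05, and 0.59 without offsets) and TFRC, the transferrin receptor, at 0.75 (adjusted p 4.0e-04, and 0.58 without offsets, under a fold change of 1.5). CCND2 kept −0.68 (adjusted p 6.8e-05), and 15% of its sequence words are shared with another gene model.

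The 10 co-activators of MYC were all above 0 after AF9 KD, with a median of 0.46 that became 0.22 with GC offsets. Under these offsets KAT5 was at −0.13 and ZBTB17 at 0.02, and 0 of the 10 were called, where 8.14% of all genes were. Without offsets RUVBL2, a helicase of chromatin remodelers, was the 1 called, at 0.59 ± 0.12 (adjusted p 0.00267, and 0.35 with GC offsets), where 8.01% of all genes rose. In the polycomb complex of MGA, TFDP1, the dimer partner of E2F, rose by 0.71 ± 0.10 (adjusted p 2.9e-04, and 0.73 with GC offsets), although 16.2% of its sequence words are shared with other genes. YAF2, a subunit that binds RING proteins, fell by 0.59 (adjusted p 0.00213), with −0.31 under GC offsets. The 11 co-repressors (median 0.04) and the 8 turnover genes (median 0.07) held no called gene, and neither did the 3 MYC-repressed targets tested (median −0.19).

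MLX runs a parallel network in which it pairs with MondoA (MLXIP) or ChREBP (MLXIPL) and also with MXD1, MXD4 and MNT. MLX had a log2 fold change of −0.22 ± 0.09 after AF9 KD (adjusted p 0.0993) and MLXIP one of 0.45 ± 0.10 (adjusted p 0.00434), under a fold change of 1.5. MLXIPL was at 0 counts in every library. TXNIP fell from 1340 ± 122 to 732 ± 233 CPM after AF9 KD, by 0.87 (adjusted p 0.00172, and −0.68 with GC offsets, adjusted p 0.00606). ARRDC4 was at −0.19 (adjusted p 0.263).

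**Figure D4:**
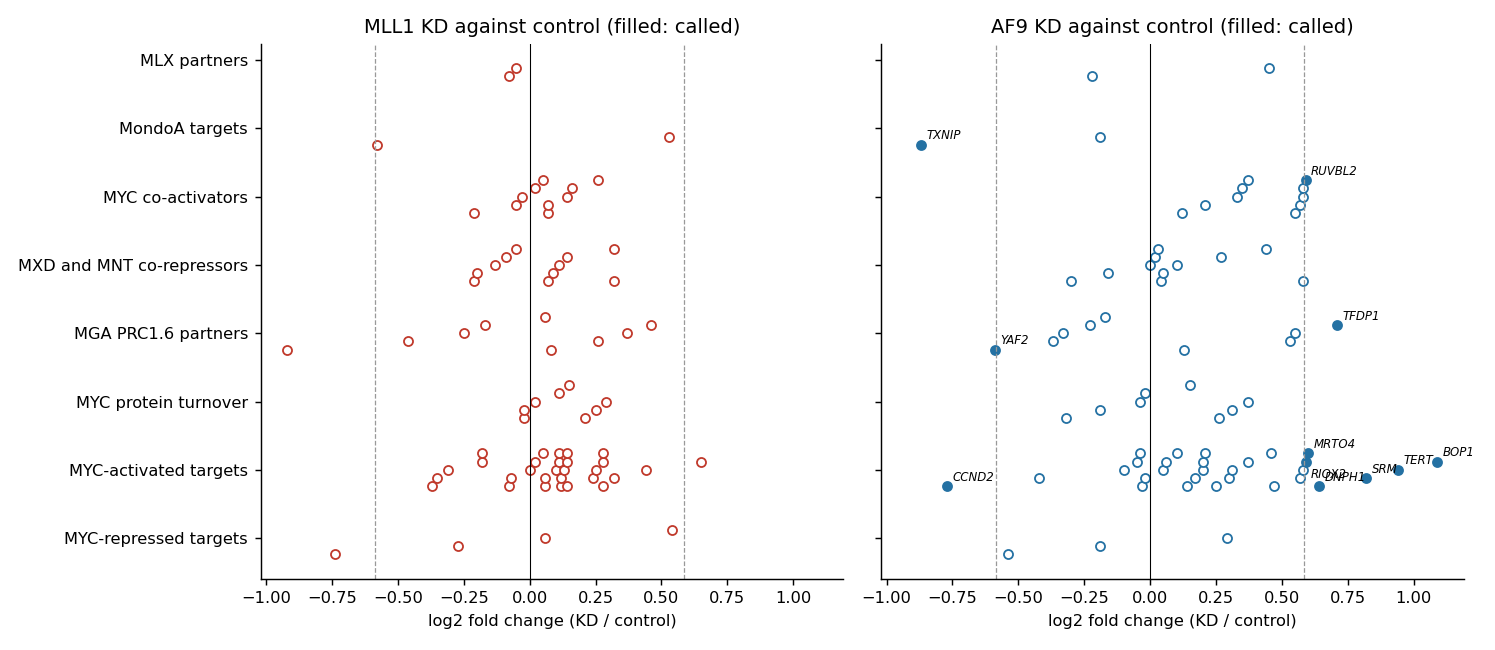
Log2 fold change (KD over control) of each tested gene of 8 lists around the network, after MLL1 KD (left) and AF9 KD (right). Each circle is a gene, filled and named where called, and dashed lines mark a fold change of 1.5. No circle is filled after MLL1 KD, and after AF9 KD 8 are filled above 0 and 3 below.

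Markers of other states moved beside the network after AF9 KD, and their part in the results was not tested. Erythroid markers summed to 9377 and 9564 CPM in AF9 control cells and to 7607 and 6380 CPM in AF9 KD cells. Of the 11 tested 2 rose and 2 fell, where 8.01% and 5.06% of all genes tested did. HBA2 at 1.22 and HBA1 at 1.15 were the largest changes, a pair of near-identical copies whose reads can be split between them. With GC offsets these were 0.45 (adjusted p 0.0909) and 0.35 (adjusted p 0.0983), no longer called. The 2 that fell were the fetal globins HBG1 and HBG2, both at −0.60, which were the most abundant of the list, with HBG2 at a mean of 4845 CPM in control and 3190 CPM in AF9 KD cells. With GC offsets they were −0.51 and −0.55, under a fold change of 1.5. GYPB was then the 1 erythroid marker called, at 0.61 (adjusted p 5.7e-04, and 0.37 without offsets). Myeloid markers summed to 207 and 195 CPM against 164 and 179 CPM, and of the 3 tested CEBPA rose by 1.76 ± 0.39 from a mean of 0.788 to 2.67 CPM (adjusted p 0.00457), with 1.03 (adjusted p 0.0738) under GC offsets. The other 2 were lower, LYZ at −0.39 (adjusted p 0.0106, under a fold change of 1.5) and CD33 at −0.14 (adjusted p 0.293). Of 7 immediate early genes tested 1 rose, EGR1 at 1.08, and 2 fell, ATF3 at −1.14 and KLF6 at −1.13, where 8.01% and 5.06% of all genes tested did. IER2 fell too under GC offsets, at −0.69 (adjusted p 2.0e-04, and −0.23 without offsets), where 3.81% of all genes fell. Megakaryocyte markers summed to 1309 and 1442 CPM against 1280 and 1625 CPM. Of the 6 tested 0 were called without offsets. Under GC offsets GP9 alone was called, at −0.79 (adjusted p 0.0012, and 0.03 without offsets).

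In the MLL1 experiment erythroid markers summed to 1822 to 2022 CPM in control and 1509 to 1731 CPM in KD cells, not overlapping. Of the 11 tested 0 were called without the block and 4 fell with it (ALAS2, HBG2, HBA1 and HBA2), where 2.52% of all genes fell. ALAS2, the first enzyme of heme synthesis in red cells, had the largest difference, −1.75 ± 0.28 (adjusted p 0.1, and 2.0e-06 with the block). Megakaryocyte markers summed to 2219 to 2442 CPM in control and 1840 to 2120 CPM in KD cells, also not overlapping. Of the 6 tested 3 lay above 0 and 3 below. PF4 alone was called with the block, and it rose by 1.19 (adjusted p 6.2e-04), where 2.22% of all genes rose. Lymphoid markers summed to 10.7 to 14.9 CPM in control and 21.9 to 23.2 CPM in KD cells. The 2 tested lay on opposite sides, CD2 at 1.49 (adjusted p 0.0837, and 6.6e-05 with the block) and CD79A at −0.46 (adjusted p 0.716). These lists moved in the same comparison as MYCN, and their part was not tested. Immediate early genes summed to 133 CPM in control and 135 CPM in KD replicate 1 and to 220.2 to 252 CPM in replicates 2 and 3, so that replicate 1, which had the highest MYCN of both groups, also had the lowest sum of these genes. Of the 8 tested 0 were called without the block. With it 1 rose, JUN at 1.10 (adjusted p 0.00182), and 0 fell, where 2.22% and 2.52% of all genes did. Without replicate 1 of both groups the log2 fold change of MYCN was 1.59 (adjusted p 6.8e-21), a choice of libraries made with earlier results of these data known.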

How the data were processed

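Per the labels and the study's methods, the authors trimmed reads with fastp 0.13.1, aligned them to hg38 by HISAT2 2.1.0 with the library's strand given, and obtained strand-aware gene counts from featureCounts 1.6.1. The deposited values are raw counts, without normalization. The annotation is not given in the sources used here. Symbols were matched to GENCODE 44 for length and GC content (92.4% matched). Each table was fitted on its own with edgeR 4.0.16 (R 4.3.3, quasi-likelihood test, TMM factors, mean TPM of at least 1, or mean CPM of at least 1 without a length), p-values were adjusted by Benjamini-Hochberg over all genes tested, and a gene was called at an adjusted p under 0.05 and a fold change of at least 1.5. DESeq2 1.42.0, the tool of the study, was an alternative, as were a replicate block, offsets from a lowess trend of log2 counts on GC, other filters and scalings, and leaving out each library. Fits were tested on simulated data.

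Replicate numbers come from the sample titles. In the MLL1 table same-numbered libraries deviated together, with correlations of 0.647, 0.325 and 0.351. Replicates 2 and 3 did so across numbers as well (0.368 and 0.359), so their pairing rests on the titles alone. Blocked values stand beside the results of the MLL1 experiment where they change the call. Replicates of a group differed by more than sampling noise. The members and lists were chosen with earlier results of these data known. Named list genes were those called in either table, at most 4 per list and table, with MLX, MLXIP, MLXIPL and PVT1. CBX3 and TXNIP in the MLL1 table were named after their values were seen. So were ARRDC4, RIOX2, TFRC, KAT5, ZBTB17, EGR1, IER2, JUN, LYZ, CD33, CD79A, PF4, GP9, GYPB and the globins and heme gene named as markers. CUT&Tag samples were not analysed here.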

Additional observations from a re-analysis of the deposited data

How the results depend on the processing

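Calls in the MLL1 experiment depended on how the spread was estimated. The count of network genes called there was 0, and it was 1 (MYCN) with DESeq2 on the filtered or on all genes, the replicate block, GC offsets with the block, and replicates 2 and 3 only with or without the block, the last chosen after seeing the data. The list genes called there were 0, then 1 with either DESeq2 run, 2 with the block, with or without GC offsets, 2 with replicates 2 and 3 only, also with the block, and 0 to 1 when single libraries were left out (1 without KD replicate 1). The block changed no other call of a network gene there. In the AF9 experiment the network count was 1, then 3 without a filter (MXD1, MXD4 and MYCN) and 0 at a fold change of 2. Without a fold threshold it was 3, where 29.0% of all genes passed. With the replicate block it was 2, where 14.7% of all genes were called. These were MXD1 and MXD4, and the log2 fold change of MXD4 was then 0.80 (adjusted p 0.00866). With 2 libraries per AF9 group the deviations mirror each other, so their correlation of 0.156 cannot show whether same-numbered libraries belong together. The 11 list genes called there became 18 with total counts, 7 with GC offsets, 7 with GC offsets and the block, 31 without a fold threshold and 1 at a fold change of 2, from 7 without control replicate 1 to 16 without control replicate 2. The network genes that differed between the experiments were 1, 0 with total counts, 0 with GC offsets and 2 with the block. The cause of these shifts was not tested.

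Some values changed sign. MYC after MLL1 KD was 0.02 with replicates 2 and 3 only, also with the block. MYC after AF9 KD was 0.07 with total counts and 0.01 at a mean TPM of at least 5, and −0.04 to 0.00 when single libraries were left out. MNT after AF9 KD was −0.26 with GC offsets, with or without the block, and −0.07 to 0.24 when single libraries were left out. After MLL1 KD, leaving out single libraries gave −0.09 to 0.83 for MYCL, −0.15 to 0.34 for MXD3, −0.05 to 0.46 for MXD4, −0.13 to 0.32 for MXI1 and −0.15 to 0.22 for MGA. Of the fold changes of single network genes under the other alternatives, 311 kept direction and side of the threshold, 13 moved past it and 0 dropped under it. MYCL without KD replicate 3 was −0.09 against 0.57 with it. MYCN in the AF9 experiment, with 0 to 10 counts per library, was too shallow for the main test.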
